A study of Mus musculus with 42 samples.

Results

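Lepr, the gene of the leptin receptor, was followed through liver RNA sequencing of 42 male mice. It is 1 gene of 19758 gene names listed in at least 1 of 6 tables of normalized counts, and it was listed in all 6. Lepr was chosen because, in the main fit used here, it had the largest called fall in obese wild type (WT) mice against lean WT mice. Its values in that comparison are therefore given as a description without a test. The mice were C57BL/6J, either ChemR23 knockout (KO) or WT littermates, and each of 6 groups held 7 mice. ChemR23, encoded by Cmklr1, is a receptor for resolvin E1 (RvE1), which is a lipid mediator formed out of the omega-3 fatty acid EPA, and the KO was made by CRISPR/Cas9 genome editing. WT lean and KO lean mice ate a diet with 10% of its energy from lard, and the 4 obese groups ate a high fat diet with 60% from lard. Both diets were fed from 6 weeks of age for 15 weeks. WT lean, KO lean, WT obese and KO obese mice received the ethanol and PBS vehicle. WT obese+RvE1 and KO obese+RvE1 mice received 300 ng of RvE1. Both agents went into the abdomen on each of 4 days, per the labels at the visceral fat pad, and livers were taken on day 5 after a fast.

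Leptin is a hormone of fat cells that reports energy stores. Its receptor belongs to the class I cytokine receptors, which have no kinase of their own and signal through a bound JAK kinase, mainly JAK2, to STAT3 and STAT5, to SHP2 and to the insulin receptor substrates. SOCS3 and the phosphatase PTP1B dampen the signal. The long receptor form carries the full signalling tail and is best known from the hypothalamus. In the liver short forms predominate, and the liver is a source of soluble receptor, which binds leptin in the blood.

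Lepr lies on the plus strand of mouse chromosome 4 at chr4:101717404-101815352 (GRCm38, the build called mm10), and GENCODE annotates 3 complete coding transcripts. They share their first 2667 coding bases and differ in the end of the tail, and those ends are shown because the deposited counts are per gene and pool all of them. The coding bases after the shared part, read 5′ to 3′ on the plus strand with a stop codon in capitals, were as follows.
Lepr-202: gtcactgttTAA
Lepr-203: agaacggacactcttTGA
Lepr-201, first 60 of 822 bases: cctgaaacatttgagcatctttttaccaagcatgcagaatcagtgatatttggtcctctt
Lepr-202 and Lepr-203 are short forms with 12 and 18 bases of their own. Lepr-201 is the long form, with 3489 coding bases in all. Which form the reads came from was not analysed here, so every value below is of the whole gene.

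Total reads over the listed genes ran from 15992525 to 43841120 a library (median 24298289). Lepr had between 92 reads, in 1 KO obese mouse, and 10183 reads, in 1 WT lean mouse. At 92 reads the counting error was 10.4% (95% exact Poisson interval 74.2 to 113 reads), far smaller than the differences between mice given below, and this interval covers counting error only. Cmklr1, the edited gene, served as a check of the labels: its normalized counts were 40.8 to 114 in WT lean against 9.72 to 22.6 in KO lean mice, and 33.3 to 102 in WT obese against 5.08 to 23.2 in KO obese mice, with no overlap in either table. The 8 hepatocyte markers, among them Alb, were all detected and none was called in any comparison. Of 6 adipocyte markers, Adipoq, Plin1, Adig and Retn were listed in 1 table only, at 32.3 normalized counts or fewer. Cidea, also a gene of fat-laden hepatocytes, was the 1 adipocyte marker tested in the diet tables, at up to 145 normalized counts over all tables. Its log2 fold change was 2.33 in WT (adjusted p = 0.183 in limma) and 1.86 in KO mice (adjusted p = 0.205 in limma). It was called higher in KO mice without mouse 23L, and its r with Lepr within groups was -0.32 in the WT and -0.74 in the KO table.

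Levels were first set side by side for all 42 mice after scaling their libraries together. WT lean mice had the highest levels, with a lowest value of 1654, a median of 4859 and a highest value of 9830 normalized counts. KO lean mice followed with 1519, 2257 and 3780. The medians of the 4 obese groups lay close together, at 185 in WT obese, 188 in WT obese+RvE1, 183 in KO obese and 178 in KO obese+RvE1 mice. In this order the lean groups stood apart from the obese groups, while the 4 obese groups overlapped one another throughout and WT lean overlapped KO lean. Of 28 obese mice, 27 had less Lepr than the lowest lean mouse. The exception was the WT obese mouse 22L with 2029, which lay above the lowest lean mice of both genotypes. Below it came the KO obese mice 23L with 1432 and 31L with 970, and the other 25 obese mice all had under 400. The 14 RvE1 mice ran from 94.4 to 351.

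**Figure D1:**
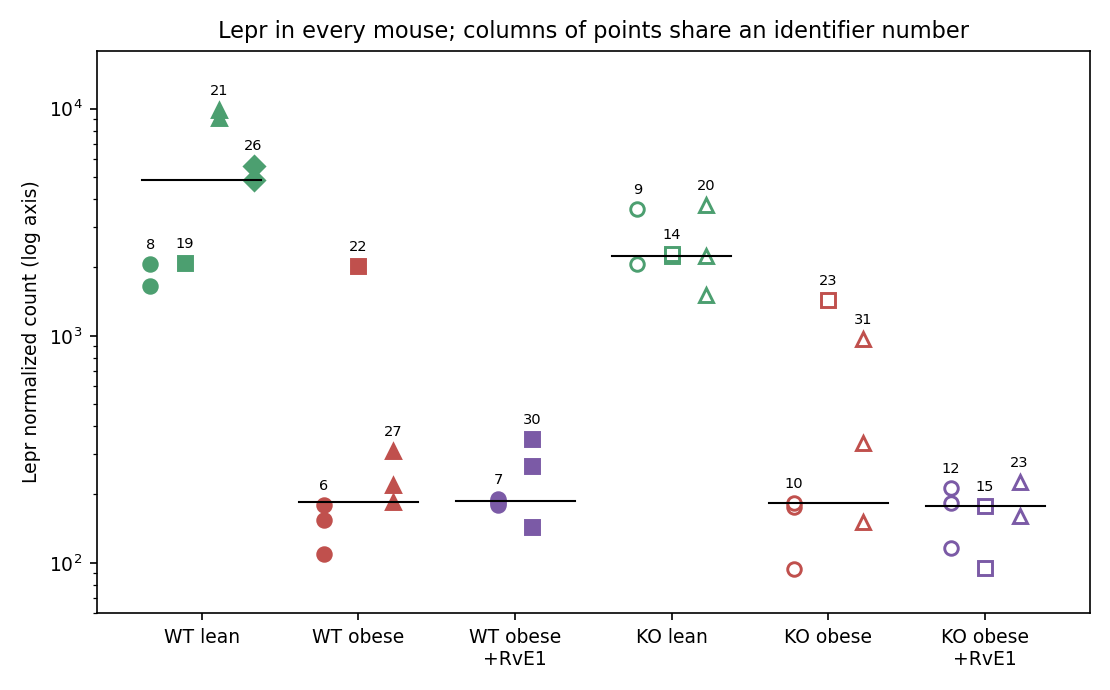
Lepr normalized counts of the 42 mice on a log axis, scaled together, in 6 groups of 7 (filled, WT; open, KO). Points in 1 column share the number that opens their mouse identifiers, printed above, and lines are medians; 27 of 28 obese mice sit below the lowest lean mouse at 1519.

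The first comparison asked how the high fat diet changed liver transcripts in WT mice. In the table of that comparison, Lepr was 1472 at the lowest, 4314 at the median and 8762 at the highest in WT lean mice, and 96.6, 164 and 1804 in WT obese mice. The groups overlapped through mouse 22L alone, since the second highest WT obese mouse, 27-2L, had 278. Means were 4486 ± 3022 (SD, n = 7) and 405 ± 620 (SD, n = 7). The log2 fold change was -3.96 (SE 0.57), a 15.6-fold lower geometric mean, and it was the lowest of the 532 called genes, which were 3.8% of the 14012 genes tested (2.26% higher and 1.53% lower). A gene was called when its Benjamini-Hochberg adjusted p in limma was under 0.1 and its fold above 1.5. Lepr was picked by this value, so no test is given. Its place is that of this limma fit. The authors' DESeq2 analysis reported log2 falls for Nr4a3 and Chrna4 that were larger than this limma value. Their own value for Lepr was not used, so its place in their analysis is not given. In limma the next genes down were Chrna4 at -3.94 and Fabp5 at -3.92, so that Lepr was set apart from those just below it by less than its SE. Chrna4 encodes a nicotinic acetylcholine receptor subunit and Fabp5 a fatty acid binding protein.

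Obese KO mice gave a test in animals the choice had not used. In the KO table Lepr was 1541, 2290 and 3853 (lowest, median, highest) in KO lean mice and 95.02, 183 and 1468 in KO obese mice. No KO obese mouse reached the lowest KO lean mouse, though 23L came near it and 31L had 994. Means were 2573 ± 852 (SD, n = 7) and 488 ± 531 (SD, n = 7). Lepr fell by 3.01 on the log2 scale (SE 0.50, 95% interval -4.06 to -1.97), an 8.07-fold lower geometric mean, with an adjusted p of 0.00322 in limma. In this comparison 10.4% of 14213 genes were called, 5.42% of them in the lower direction as a share of all tested. An exact two-sided permutation test over the 14 mice gave p = 0.000583, the smallest value 7 against 7 mice allow. The call held under the 31 other settings and left-out mice tried, with changes from -3.53 to -2.22 and a highest adjusted p of 0.0237.

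Only 3 called genes had a larger fall than Lepr in the KO comparison, and they are named here after their values were seen. Moxd1, a monooxygenase homologue, had a log2 fold change of -3.60 (SE 1.44), and Hsd3b5, a male-biased liver steroid dehydrogenase, of -3.15 (SE 1.08). Their SEs were more than 2 times that of Lepr. Fabp5 fell by 3.15 (SE 0.47), and its levels were 22.5, 26.4 and 159 (lowest, median, highest) in KO obese against 179, 434 and 829 in KO lean mice. Mouse 23L, the KO obese mouse with the most Lepr, was also the one with the most Fabp5, and in the WT table mouse 22L was the WT obese mouse with the most of both.

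The diet comparisons in WT and KO mice can be set side by side, at -3.96 (SE 0.57) and -3.01 (SE 0.50). Their difference was not tested, because the WT value had chosen the gene. The obese medians were alike at 164 and 183 in their own tables, and the lean medians were 4314 and 2290.

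**Figure D2:**
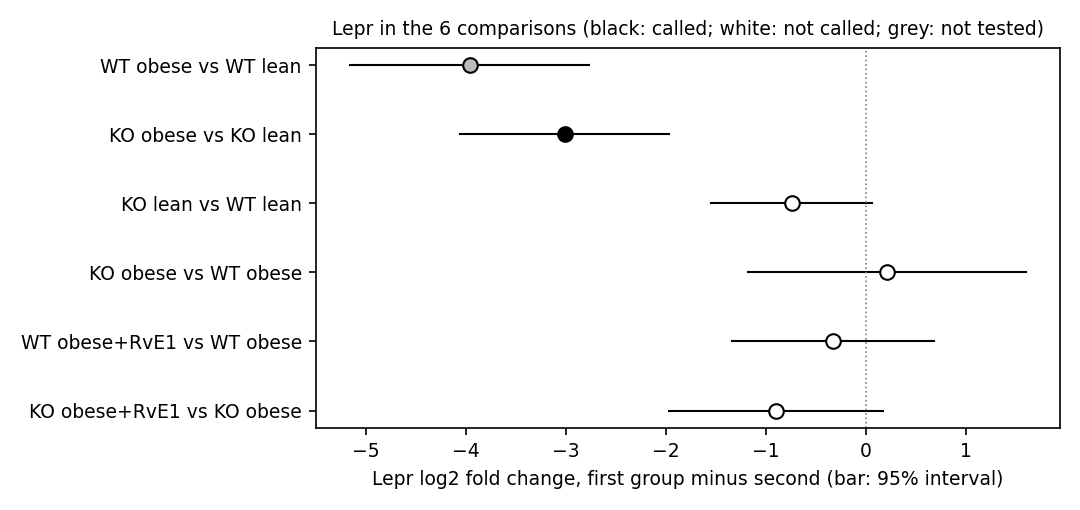
Log2 fold change of Lepr with its 95% interval in the 6 comparisons, 7 mice a group. The interval of KO obese against KO lean runs from -4.06 to -1.97 (black, called), and the 4 drawn in white hold 0 (not called). The WT diet value (grey) chose the gene and was not tested. Its bar takes no account of that choice and is not to be read as a test.

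The comparison of lean mice asked whether loss of ChemR23 altered the liver without obesity. It shares the WT lean mice with the comparison that chose Lepr, so its WT lean values are not independent of that choice. In this table Lepr was 1531, 4497 and 9105 (lowest, median, highest) in WT lean mice and 1397, 2082 and 3510 in KO lean mice. The 7 KO values lay below the WT median, and the groups overlapped. The log2 fold change was -0.74 (SE 0.38, 95% interval -1.55 to 0.06), and it did not pass (adjusted p = 0.221 in limma; 6.65% of 13031 genes were called, 3.94% higher and 2.7% lower). The call turned with the method. It was made by DESeq2 at -0.99 (adjusted p = 0.0465) and with library quality weights at -0.96 (adjusted p = 0.0531), and edgeR's quasi-likelihood test missed it at -0.99 (adjusted p = 0.103). Leaving out both mice numbered 8 gave -1.20 (adjusted p = 0.0563), a call, and leaving out both mice numbered 21 gave -0.25 (adjusted p = 0.683).

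Obese mice of the genotypes were compared next, again with WT mice whose values had entered the choice of Lepr. In that table Lepr was 106, 181 and 1980 (lowest, median, highest) in WT obese mice and 92.1, 179 and 1408 in KO obese mice, and the groups overlapped over most of their range. The log2 fold change was 0.21 (SE 0.66, 95% interval -1.18 to 1.60; adjusted p = 1.00 in limma), where 0.0141% of 14162 genes were called (0.00706% higher and 0.00706% lower). Here 1 WT and 2 KO obese mice had several times the level of the rest. Without mouse 22L the value was 0.71, and without mouse 23L it was -0.17, so its sign rested on single animals.

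RvE1 was given to ask whether it altered the obese liver, and whether that needed ChemR23. The WT obese vehicle mice had also entered the choice of Lepr, so the WT value and the difference between the genotypes are not independent of it. In the WT table Lepr was 113, 193 and 2115 (lowest, median, highest) in vehicle mice and 149, 196 and 368 in RvE1 mice. The medians nearly coincided, and the RvE1 values fell inside the vehicle range. The log2 fold change was -0.33 (SE 0.48, 95% interval -1.34 to 0.68; adjusted p = 0.969 in limma). It came to 0.17 without mouse 22L, to 0.14 in DESeq2 and to -1.08 in edgeR, none of them called. In the KO table Lepr was 96.1, 187 and 1479 in vehicle mice and 96.4, 183 and 233 in RvE1 mice. The highest RvE1 mouse lay below the vehicle mice 23L, 31L and 31N, and the other 4 vehicle mice, at 96.1 to 187, lay beside the RvE1 mice. The log2 fold change was -0.90 (SE 0.51, 95% interval -1.97 to 0.18; adjusted p = 0.611 in limma). It came to -0.52 without mouse 23L, to -0.61 without 31L, to -0.62 without the mice numbered 23, to -1.68 without those numbered 10, to -0.32 with library quality weights, to -1.50 in edgeR and to -1.52 in DESeq2, none of them called. The RvE1 change in KO mice minus that in WT mice was -0.57 (SE 0.74; adjusted p = 1.00 in limma), and it came to -1.07 without mouse 22L, to -0.19 without 23L, to -0.29 without 31L and to -0.36 without the WT mouse 6R. In the RvE1 comparisons 0% of 13085 genes in WT and 0% of 14207 genes in KO mice were called by limma. At an unadjusted p under 0.05 there were 795 and 1179 genes, DESeq2 called 15 and 14, and edgeR called 1 and 0. For the difference between the genotypes the share was 0% of 13081 genes, with 313 at an unadjusted p under 0.05.

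The RvE1 groups had a narrower spread of Lepr than the vehicle groups. The SD of its log2 level was 0.42 in WT obese+RvE1 and 0.46 in KO obese+RvE1 mice, against 1.39 in WT obese and 1.46 in KO obese mice. The difference in spread was not tested, and it rested on few mice. With all libraries scaled together, the WT obese mice other than 22L (2029) ran from 109 to 311. The WT obese+RvE1 mice ran from 144 to 351. The KO obese mice other than 23L (1432) and 31L (970) ran from 94.2 to 336, and the KO obese+RvE1 mice from 94.4 to 228. Against other genes, the spread of Lepr in WT obese mice exceeded that of 99.5% of genes, in KO obese mice also of 99.5%, and in WT lean mice of 98.4%. In KO lean mice it exceeded 77.7%, and in the RvE1 groups 80.7% and 69.3%.

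Mouse identifiers open with a number that some mice of a group share, and the sources used here do not say what it marks. Lepr moved with that number in some groups. In WT lean mice the 2 mice numbered 21 had 9113 and 9830, the 2 numbered 26 had 4859 and 5619, and the 2 numbered 8 had 1654 and 2064. The 1 mouse numbered 19 had 2094. The ranges of the numbers 21, 26 and 8 did not overlap, so the WT lean range was a range between numbers more than between mice of 1 number. In WT obese mice the 3 numbered 27 had 185 to 311 and the 3 numbered 6 had 109 to 179, and mouse 22L was the single one of its number. Mice numbered 23 were split between groups: 23L, a KO obese mouse, had 1432, and the 2 KO obese+RvE1 mice of that number had 160 and 228.

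Over all 42 mice, 77.5% of the squared deviation of log2 Lepr within groups lay between numbers, against a median of 47.6% over all genes. The share was smaller than that of Lepr for 96.6% of genes. By degrees of freedom alone it would be 33.3%. By group the share ran from 98.8% in WT lean and 95.2% in WT obese mice down to 6.55% in KO lean mice, where mice of the same number differed about as much as any. A mouse alone in its number and group counts wholly as between numbers. That held for 22L and 23L, which lay farthest from their group means in the diet comparisons, and for 19R. The shares therefore mix the deviation of such mice with likeness among mice of a number, and these parts were not separated. The 42 mice fall into 18 combinations of number and group, and in the KO diet comparison 3 numbers stand against 3, with none in both groups. With numbers as the units, the KO obese means were still all below the KO lean means (exact two-sided permutation p = 0.1, the smallest that 3 against 3 allow). With the number as a random block in limma, the KO fall was -2.87 (adjusted p = 0.0237), still called, while the genes called in that comparison went from 1476 to 750. This block gave every gene the same correlation within numbers (0.237), not a value fitted to Lepr. Whether that allows enough for Lepr, with its larger share between numbers over all 42 mice, was not tested. In the lean comparison 3 of the 866 called genes were called with the block, and no other gene was.

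Other class I cytokine receptors gave a scale for these levels. Per kilobase of annotated exon, and with all libraries scaled together, Lepr averaged 714 ± 481 (SD, n = 7) in WT lean mice and stood at place 3 of 15 receptors. Above it were Ghr, the growth hormone receptor, at 1639 ± 490 and Lifr, the leukaemia inhibitory factor receptor, at 826 ± 239. The spread of Lepr reached over both Lifr and Il13ra1 at 572 ± 133, so its place among those neighbours is not settled. Exon length took in every annotated exon of a gene, 7049 bases for Lepr, whichever forms were present. Places are therefore approximate. In KO lean mice Lepr averaged 360 ± 119 and stood at place 4. In WT obese mice it averaged 64.6 ± 98.8 and in KO obese mice 67.8 ± 73.4, place 9 in both, below Il11ra1 at 105 ± 38.9 and 93.4 ± 26.3. The ranges of Lepr and Il11ra1 overlapped in both obese groups. In the RvE1 groups Lepr averaged 30.5 ± 9.95 and 23.8 ± 6.88, again at place 9.

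None of the 14 other receptors that could be tested was called in the WT diet comparison, where their median log2 fold change was -0.01 against 0.00 over all genes. In the KO comparison 2 were called higher and 1 lower, against 4.97% and 5.42% of all genes. With the block on mouse numbers these were 1 and 1. Il6ra, the interleukin 6 receptor, rose by 1.30 (SE 0.34, adjusted p = 0.0209 in limma), from a median of 1248 in KO lean to 2735 in KO obese mice. Ghr rose by 0.63 (SE 0.22, adjusted p = 0.0617 in limma). Il11ra1, the interleukin 11 receptor, fell by 0.81 (SE 0.20, adjusted p = 0.0170 in limma), and reads could be shared with its near-identical copies. Il6st, the signalling partner of the interleukin 6 family, was not called in either genotype.

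**Figure D3:**
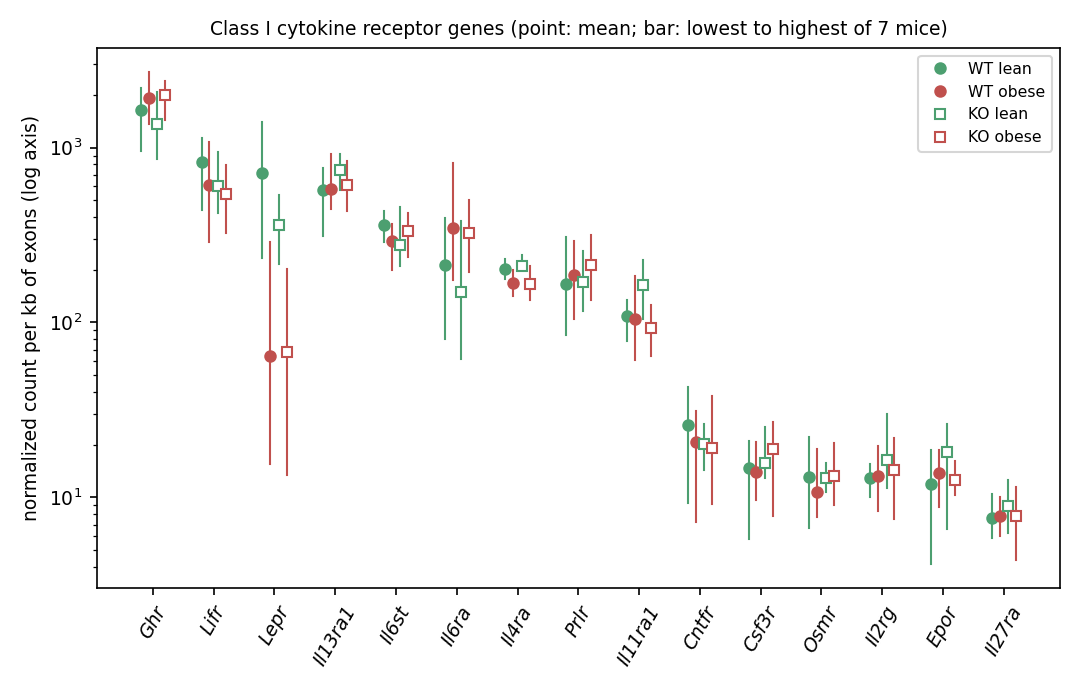
Normalized counts per kilobase of exon for Lepr and 14 other class I cytokine receptor genes, log axis; points are means and bars run from the lowest to the highest of 7 mice, for lean (green) and obese (red) mice of both genotypes (filled, WT; open, KO). Lepr goes from place 3 of 15 in WT lean to place 9 in WT obese mice, and the means of the other receptors lie closer together across the groups.

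Genes of the leptin pathway came from a list of 22, of which 21 could be tested. Lep, the hormone itself, was listed in the obese genotype table only, where it was 0 at the median and 52.9 at the highest in WT obese mice and 1.07 and 31.3 in KO obese mice. Leprot, which is encoded upstream of Lepr at chr4:101647718-101659364 and whose product limits how much leptin receptor reaches the cell surface, shares no exon with it in the annotation. Leprot was 575, 703 and 819 (lowest, median, highest) in KO lean and 454, 501 and 699 in KO obese mice. The diet change came to -0.39 on the log2 scale with an SE of 0.11, passed the adjusted p (0.0316, limma) and was below the fold needed for a call. In WT mice it was -0.21 (SE 0.13, adjusted p = 0.389). Leprotl1, its paralogue, had -0.35 in WT and -0.07 in KO mice and was not called. The large fall of Lepr was thus not matched in size by either relative, each measured in the same mice.

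In WT mice, 2 of the 21 pathway genes were called, both lower, where 1.53% of all genes were called lower. They were the insulin receptor substrates, which pass on the signals of insulin and leptin. Irs1 was 967, 1274 and 2428 (lowest, median, highest) in WT lean and 620, 670 and 972 in WT obese mice, and fell by 0.97 (SE 0.18, adjusted p = 0.00717 in limma). Irs2 was 609, 1098 and 4454 against 262, 466 and 745, and fell by 1.48 (SE 0.35, adjusted p = 0.0279 in limma). The highest obese mouse lay just above the lowest lean mouse for Irs1, and the groups overlapped further for Irs2.

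In KO mice, 2 of the 21 were called, both higher, where 4.97% of all genes were called higher. Pik3r1, the regulatory subunit of phosphoinositide 3-kinase, was 1314, 1908 and 2735 in KO lean and 2618, 4288 and 5704 in KO obese mice. It rose by 1.07 (SE 0.19, adjusted p = 0.00420 in limma). Stat5a, a STAT factor of the growth hormone and leptin pathways, was 182, 255 and 320 against 267, 379 and 589, and rose by 0.67 (SE 0.17, adjusted p = 0.0189 in limma). Without mouse 23L, Stat5a was at 0.58 and under the fold needed, so 1 pathway gene was then called. Irs1 and Irs2 had -0.30 and 0.04 in KO mice and were not called, and whether their diet change differed between the genotypes was not tested. In lean mice Irs2 was lower in KO than in WT (-1.35, SE 0.38, adjusted p = 0.0482 in limma), a call that the block on mouse numbers removed. No pathway gene was called in the obese genotype comparison or after RvE1.

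Jak2, Stat3 and Socs3, named here after their values were seen, were not called in either diet comparison. Jak2 had 0.03 in WT and 0.37 in KO mice, Stat3 had -0.34 and 0.20, and Socs3 had -0.85 and 0.17, all as log2 fold changes. Over the 21 genes the median log2 fold change was -0.14 in WT and 0.17 in KO mice, against 0.00 over all genes in both.

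**Figure D4:**
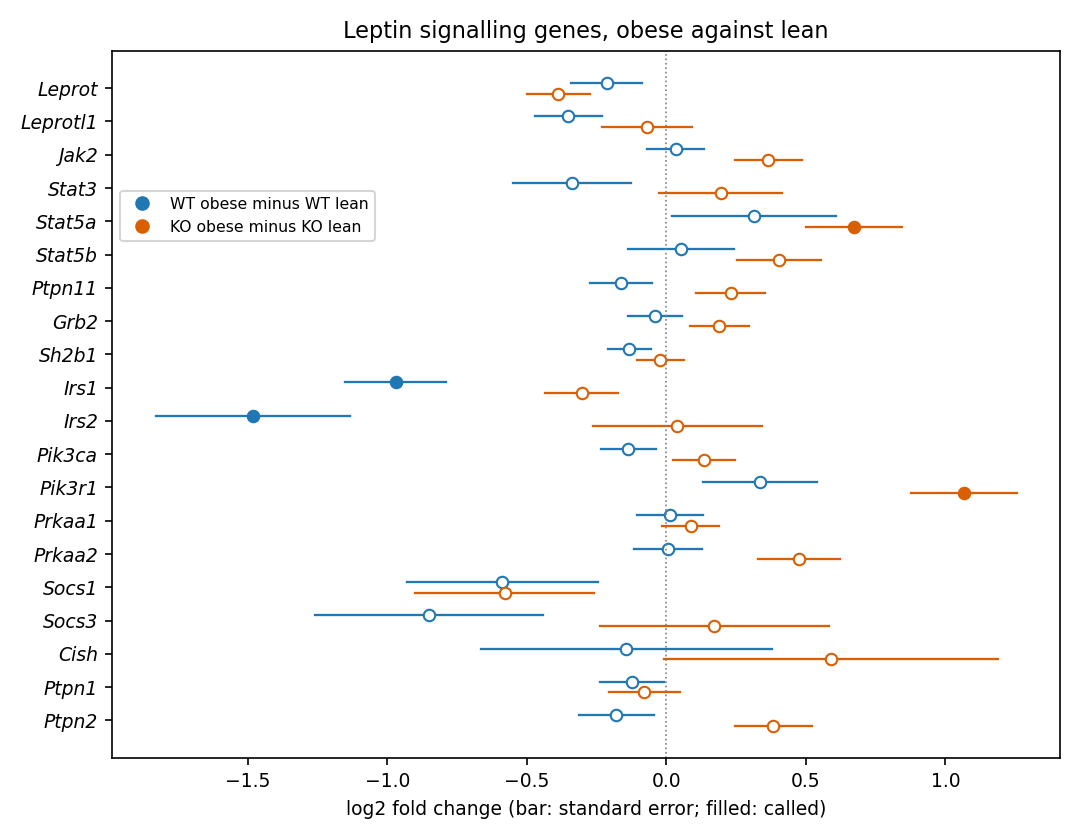
Log2 fold change, obese minus lean, of 20 of the 21 leptin signalling genes in WT (blue) and KO mice (orange), with standard errors and with called genes filled, 7 mice a group. Irs1 and Irs2 are called lower in WT and Pik3r1 and Stat5a higher in KO mice, all within 1.5 log2 units of 0 and far short of Lepr at -3.96 and -3.01.

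Genes that followed Lepr from mouse to mouse within groups were looked for among 13923 genes tested in both diet tables. Pearson's r was taken over the 14 mice of a table after subtracting group means on the log2 scale, so that the diet change itself does not enter. The points share libraries and mouse numbers, and the r values are descriptions. The middle 90% of genes lay between -0.66 and 0.67 in the WT table and between -0.65 and 0.64 in the KO table. The 8 genes with the highest smaller r of both tables were Sun2, Dstn, Serinc3, Picalm, Eif4ebp3, St3gal5, Por and Ncoa4. Sun2, a nuclear envelope protein that ties the nucleus to the cytoskeleton, had r of 0.90 in WT and 0.88 in KO mice. Dstn, an actin-severing protein, had 0.87 and 0.90. St3gal5, the ganglioside GM3 synthase, had 0.93 and 0.84, and Por, the electron donor of the microsomal cytochrome P450 enzymes, had 0.90 and 0.83.

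Mice 22L and 23L had the highest levels of Sun2 in their groups too. In WT obese mice Sun2 was 1785 at the lowest, 2248 at the median and 4631 in mouse 22L, and in KO obese mice it was 1976, 2277 and 5744, the last in mouse 23L. Without the mouse of each table in which Lepr was farthest from its group mean, 22L and 23L, the r of these 8 genes was 0.64 to 0.94 in WT and 0.70 to 0.85 in KO mice. The 5 genes with the most negative r were 2610507I01Rik, Lrsam1, Otub2, Slc36a1 and Abcb9. 2610507I01Rik had -0.89 in both tables, and Lrsam1, a ubiquitin ligase, had -0.87 and -0.90. Slc36a1 and Abcb9 encode transporters of the lysosomal membrane, and their r was -0.88 and -0.84 in WT and -0.85 and -0.91 in KO mice.

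The 14 RvE1 mice had no part in that ranking. Over them, r with Lepr within groups was 0.61 to 0.85 for the 8 positive genes and -0.76 to -0.54 for the 5 negative ones, where the middle 90% of genes lay between -0.54 and 0.55. Sun2 had the highest value, 0.85. Unlike Lepr, none of the 13 genes was called in either diet comparison, and their log2 fold changes in KO mice ran from -0.35 for St3gal5 to 0.42 for Slc36a1. In WT mice these changes ran from -0.49 for St3gal5 to 0.49 for Abcb9, against -3.96 for Lepr. The 5 negative genes were all higher in WT obese mice, and the 8 positive ones went both ways. In KO mice both sets went both ways. The 13 genes thus followed Lepr among mice of a group without a call for diet. Whether they shared part of its change with diet was not tested. The deviation of Lepr had r of -0.09 with log2 total reads in WT and -0.42 in KO mice; the part of depth in these relations was not tested.

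**Figure D5:**
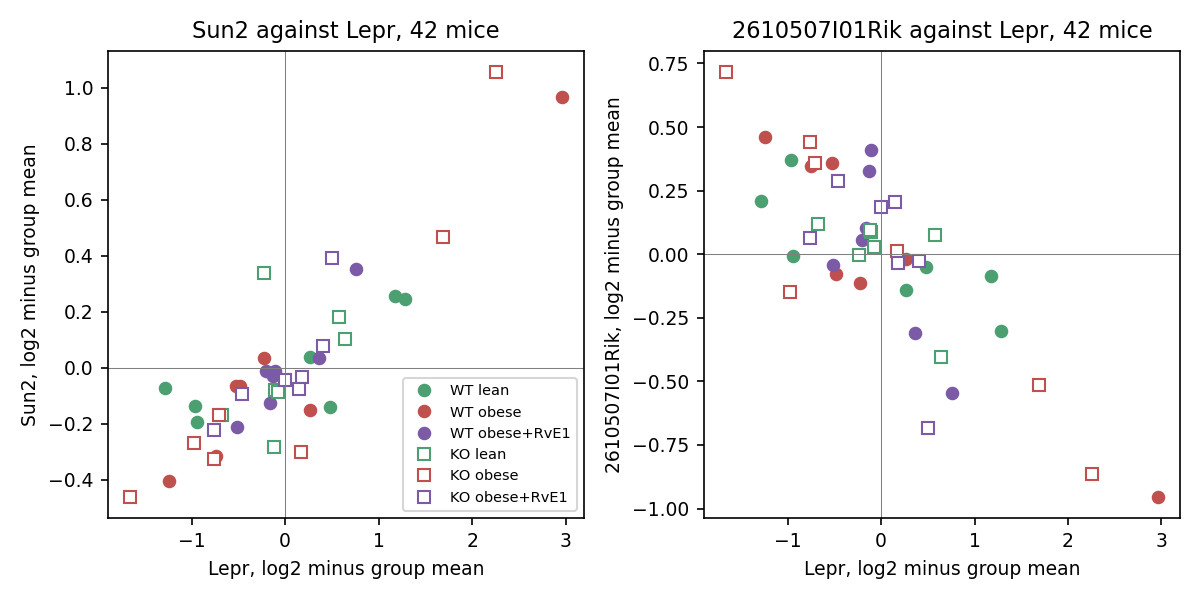
Log2 level minus the group mean of Sun2 (left) and 2610507I01Rik (right) against that of Lepr in 42 mice scaled together (circles, WT; squares, KO; colours, diet and RvE1). Sun2 rises with Lepr (r = 0.87) and 2610507I01Rik falls (r = -0.82); the WT obese mouse 22L and KO obese mice 23L and 31L lie farthest to the right.

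Within the leptin list, 16 of 21 genes had a positive r with Lepr in both diet tables and 3 had a negative r in both. Stat5b was the highest in both, at 0.81 in WT and 0.79 in KO mice, and Stat3 had 0.60 and 0.71. The median r of the list was 0.30 in WT and 0.35 in KO mice, against -0.01 and 0.00 over all genes. Other lists, described below, were alike. In the acute phase list 15 of 19 genes were positive in both tables (median r 0.22 and 0.42), and in the lipogenic list 13 of 18 (0.36 and 0.28). Of the fasting list 12 of 20, of the receptors 9 of 14 and of the clock list 8 of 17 were positive in both. The share of all genes positive in both tables was not computed. Of the 8 hepatocyte markers 6 were positive in both tables, Cps1, a urea cycle enzyme, most of all at 0.86 and 0.79, and their median r was 0.48 and 0.56.

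Further lists that bear on feeding and on STAT3 were read in the same diet tables. Of 20 genes of the fasting response, 5 were called lower in WT mice and 5 in KO mice and none higher, where 1.53% and 5.42% of all genes were called lower. In KO mice Acot1, an acyl-CoA thioesterase, fell by 1.53 (SE 0.27, adjusted p = 0.00420 in limma) and Fgf21, a fasting hormone of the liver, by 1.39 (SE 0.30, adjusted p = 0.00900 in limma). Cyp4a10 and Angptl4 fell by 1.48 and 0.81. In WT mice Pdk4 fell by 2.10 (SE 0.64, adjusted p = 0.0870 in limma) and Igfbp1 by 1.47 (SE 0.47, adjusted p = 0.0997 in limma). With the block on mouse numbers 2 and 3 of the list were called lower in WT and KO mice, and without mouse 23L 7 were called lower in KO mice.

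Of 18 lipogenic genes, 2 were called higher and 6 lower in WT mice, and 2 higher and 2 lower in KO mice. Over all genes 2.26% were called higher and 1.53% lower in WT, and 4.97% and 5.42% in KO mice. With the block on mouse numbers 1 was called higher and 3 lower in WT mice, and 2 and 2 in KO mice. Scd1, the stearoyl-CoA desaturase that leptin is known to lower, fell by 2.25 in KO mice (SE 0.43, adjusted p = 0.00591 in limma), and was also called lower in WT mice at -2.39. Thrsp, a regulator of fat synthesis, rose by 2.38 (SE 0.67, adjusted p = 0.0281 in limma) in KO mice, and Pklr rose by 1.20 while Fads2 fell by 0.72. In WT mice Elovl6 and Me1 fell by 1.59 and 0.66.

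Of 19 tested genes of the acute phase and STAT3 response, 2 were called higher in WT mice, and 6 higher and 2 lower in KO mice, against the same 2.26% higher in WT, and 4.97% higher and 5.42% lower in KO mice. The WT direction turned on 1 mouse: without 22L, Saa3 was called higher, Fga, Fgg and Bcl3 were called lower, and Orm3 was not called. Orm3, an acid glycoprotein of the acute phase, rose by 4.31 (SE 0.51, adjusted p = 0.00126 in limma) in KO mice, with 207 to 531 in obese and 3.87 to 47.6 in lean animals. Lcn2, an iron-scavenging acute phase protein, rose by 2.69, Saa3 rose by 1.51 and Apcs fell by 1.48. Reads of the Orm and Saa genes could be shared within their families. With the block, 3 of the list were called higher and 1 lower in KO mice, and 1 higher in WT mice.

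Of 17 tested clock genes, 2 were called higher and 2 lower in WT mice, and 5 higher and 1 lower in KO mice, against 2.26% and 1.53% of all genes in WT and 4.97% and 5.42% in KO mice. With the block on mouse numbers 1 was called higher and 1 lower in WT mice, and 4 higher in KO mice. Without mouse 22L the genes called lower in WT mice were 4, Clock, Npas2, Arntl and Nfil3. Hlf rose by 0.72, Per2 by 1.31 and Per3 by 1.11 in KO mice, with adjusted p between 0.00255 and 0.0305 in limma. In WT mice Per3 and Tef rose by 1.48 and 0.69 and Clock fell by 0.70. Hour of harvest was not analysed here. Within groups the median r with Lepr was 0.16 in WT and 0.35 in KO mice for the fasting list, and 0.31 and 0.16 for the clock list.

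Markers of other liver cells moved with some of these comparisons. Of 6 tested of 7 Kupffer cell markers (Adgre1 was not tested), Vsig4, Cd5l, Clec4f and Timd4 fell in KO obese mice and all 6 were called higher in KO lean against WT lean mice, where 5.42% of all genes were called lower and 3.94% higher. With the block on mouse numbers 4 of the 6 were called lower in the KO diet comparison, and 0 of the 6 were called in the lean comparison. Their summed level in normalized counts was 6885 to 14739 in KO lean, 3817 to 5205 in KO obese, 2811 to 6473 in WT lean and 3166 to 5652 in WT obese mice. The sinusoidal endothelial marker Clec4g also fell in KO obese mice, though not with the block, and no stellate cell or cholangiocyte marker was called in either diet comparison. Of 4 tested lymphocyte markers 2, and of 2 tested erythroid markers 1, were called lower in KO obese mice, none with the block. In lean mice 1 of 5 cholangiocyte markers was called lower in KO than in WT, where 2.7% of all genes were, and 0 with the block. In bulk liver, fewer cells of a type and less RNA per cell cannot be told apart. None of the 8 hepatocyte markers was called in these comparisons, and their summed level overlapped between all groups. The part of cell makeup in the Lepr values was not tested.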

How the data were processed

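Whole liver RNA from 42 mice was sequenced as stranded, paired-end libraries. The authors checked reads with FastQC, aligned them to mm10 with Bowtie2, counted genes with featureCounts of Subread and normalized with DESeq2; the sources used here give no versions, annotation or strand setting. The 6 deposited tables each hold 14 libraries as normalized counts, a signal scaled within its table, beside the authors' shrunken fold changes and p-values, which were not used. Each table was scaled separately, so tests stay within a table. Whole reads were recovered for 100% of values (tolerance 0.1 read), and no read differed between tables that share mice. The main test was limma 3.58.1 (trended empirical Bayes, two-sided) on log2(normalized count + 1), genes with a mean of at least 5, Benjamini-Hochberg adjusted p under 0.1 and fold above 1.5. Fold changes on this scale understate changes of low genes. edgeR 4.0.16 and DESeq2 1.42.0 on recovered reads were alternatives. Levels across groups used 12742 genes in all tables, scaled by medians of ratios. Exon lengths came from GENCODE.

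In counts simulated for the KO diet comparison over 14133 genes, 100% of 50 genes lowered to 0.25 and 74% of 50 genes lowered to 0.5 of their level were called. Of the unchanged genes 21 were called. The simulation gave every gene the same dispersion and left out mouse numbers. Its shares do not carry over to Lepr, which had an SD of 1.46 on the log2 scale in KO obese mice. WT mice were littermate controls, but the sources used here do not say which mice shared a litter or cage, so p-values measure the spread between these mice. The members and lists were chosen with earlier results of these data known. Named were Leprot, Leprotl1, every called leptin pathway gene, up to 4 genes a list called in KO mice by adjusted p and up to 2 more in WT mice; the genes most like Lepr were 8 with the highest smaller r and 5 with the most negative larger r. A few list members are not reported here by name.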

Additional observations from a re-analysis of the deposited data

Results flagged for a closer look

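Groups of 7 mice were looked at for a highest or lowest mouse that stood off by more of the group's range than Dixon's 95% critical value. Of 182 groups, over Lepr and the named genes, 21 held such a mouse. Chance flags about 1 in 20 independent groups, and these groups share mice and include 13 genes chosen for following Lepr, so that share is no measure of chance here. Lepr itself was marked in WT obese mice, where 22L had 2029 normalized counts on the scale of all 42 libraries, a gap of 0.895 of the range. The values of the other genes here are on the scale of the diet table of their genotype, not on that of all 42 libraries. Mouse 22L was also the highest of its group for Sun2 (4631), Dstn (5652), Picalm (3863), St3gal5 (19201), Il6ra (6299) and Stat5a (668). The KO obese mouse 23L was lowest for Irs1 (677) and highest for Pdk4 (1732) and Igfbp1 (29355). The KO lean mouse 20R was highest for Il6ra (3343), Pdk4 (10464) and Igfbp1 (20685) and lowest for 2610507I01Rik (414). The WT lean mouse 19R was highest for Irs2 (4454), Pik3r1 (4307) and Per2 (2492). Single marks fell on Irs1 in the WT obese mouse 27-2L (972), Fgf21 in the KO obese mouse 31N (97.6, lowest), Pklr in the KO obese mouse 31R (21718) and Otub2 in the KO lean mouse 14-2L (97.6).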

How the results depend on the processing

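The KO diet fall of Lepr was called under all 31 alternatives (-3.53 to -2.22; adjusted p 5.55e-05 to 0.0237). The WT diet value, which chose the gene, ran from -4.46 to -3.33 over 32 alternatives, given as a description. In lean mice the genotype value was called with DESeq2 (-0.99), with quality weights (-0.96) and without the mice numbered 8, where leaving out 1 mouse or number gave -1.20 to -0.25. The obese genotype value ran from -0.42 to 1.00, the RvE1 values from -1.08 to 0.17 in WT and from -1.68 to -0.32 in KO mice, and their difference from -1.36 to 0.06, with no call. No paired analysis was possible because the labels give no replicate numbers, and of the numbers that open mouse identifiers only 23 occurs in more than 1 group (KO obese and KO obese+RvE1). The opening number entered as a random block instead, with the same correlation for every gene of a comparison.

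Of 372 recomputed list counts, 333 stayed within 1.5 times, 19 were lower and 20 higher. With the mouse number as a block, WT diet calls were 1 in the acute phase, 2 in the fasting, 4 in the lipogenic and 2 in the clock list, KO diet calls 4 in the acute phase and 3 in the fasting list, and lean genotype calls 0 in the leptin, acute phase, fasting, lipogenic and clock lists. At an adjusted p under 0.05 they were 1, 2 and 5 in the acute phase, fasting and lipogenic lists (WT diet), 3 in the fasting list (KO diet), and 1, 0 and 0 in the acute phase, fasting and clock lists (lean). With quality weights they were 8 fasting and 7 lipogenic genes (KO diet), and 4 receptors, 4 acute phase, 7 fasting, 7 lipogenic and 4 clock genes (lean). With no fold threshold they were 7 leptin genes (KO diet), and 6 leptin genes, 1 receptor and 2 fasting genes (lean). DESeq2 gave 5 acute phase genes (WT diet), 1 receptor and 5 lipogenic genes (lean, as did edgeR), 1 fasting gene (WT RvE1), and 1 leptin and 1 fasting gene (KO RvE1). Chosen after the data were seen, leaving out 22L gave 4 acute phase genes in WT (1 higher, 3 lower) and leaving out 23L gave 1 leptin gene in KO mice. Beyond the alternatives' own construction, the cause was not tested. All 78 recomputed r values with Lepr kept their sign, at sizes of 0.64 to 0.94. The counting error of Lepr was at most 10.4% of its reads, and the part of depth was not tested further.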
